A study of Homo sapiens with 18 samples.

Results

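The numbered ZNF genes, symbols made of ZNF and a number, encode zinc finger proteins of the human nucleus and cytoplasm. Here they were kept where the mean FPKM (fragments per kilobase of transcript) over the 3 DMSO libraries was at least 10. FPKM is normally scaled to mapped fragments, but the deposited totals differ between libraries far more than the spike-ins do. Of 472 ZNF symbols of this form among 23621 gene rows, 167 met the threshold and 305 did not. The members were thus chosen by their DMSO values, so every comparison with DMSO below is a description with no test, and tests were made only between drug-treated groups.

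RNA was sequenced from GIST-T1, a human cell line from a gastrointestinal stromal tumor (GIST) driven by mutant KIT. In 6 groups of 3 libraries, cells received 500 nM imatinib with 500 nM JQ1 for 24 h, 500 nM JQ1 for 24 h, 500 nM imatinib for 24 h, 500 nM JQ1 for 6 h, 500 nM imatinib for 6 h, or DMSO, the vehicle, for which the labels give no time. Imatinib inhibits the KIT kinase and JQ1 displaces BET bromodomain proteins from acetylated chromatin. RNA amounts were set by cell number and ERCC spike-in transcripts were added, so values scaled to the spike-ins can follow RNA per cell. The model is 1 cell line, and the labels do not say that the 3 libraries of a group came from separate cultures, so a p-value here speaks to variation among libraries and possibly to technical variation alone.

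A C2H2 zinc finger is a short fold in which a pair of cysteines and a pair of histidines hold a zinc ion, and arrays of such fingers read DNA sequence. Many of these proteins carry a KRAB domain, which recruits TRIM28 and through it SETDB1 and HP1 proteins to build heterochromatin, best known over transposable elements. KRAB zinc finger genes lie in chromosomal clusters that grew by duplication, so neighbors can be nearly identical in sequence.

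The label was checked on translated GENCODE transcripts: 160 of the 166 members with a protein held at least 1 C2H2 finger pattern, with a median of 9 fingers and up to 31. The 6 with none were ZNF259, ZNF330, ZNF503, ZNF703, ZNF720 and ZNF839. A pattern for the KRAB A box, which may miss some diverged domains, matched 81 of the 166 (48.8%), against 211 of 300 (70.3%) of the ZNF genes below the threshold. On chromosome 19, the main home of the family, lay 49 members (29.3%), against 188 (61.6%) of the ZNF genes below the threshold. Chromosomes 7, 16 and 1 held 21, 18 and 14 members.

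Finger units, each of 84 bases and each the third finger of its gene, are shown because they carry the family's signature and show how alike members can be. Capitals mark the cysteine and histidine codons that bind zinc. Coordinates are of the GRCh38 build with GENCODE 29 annotation, and each unit lies in the last exon, exon 5 in ZNF467 and exon 4 in the other three, within coding sequence.
ZNF92, chr7:65398889-65398972, plus strand: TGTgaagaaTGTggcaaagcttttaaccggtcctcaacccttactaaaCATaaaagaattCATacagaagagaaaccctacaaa
ZNF107, chr7:64706788-64706871, plus strand: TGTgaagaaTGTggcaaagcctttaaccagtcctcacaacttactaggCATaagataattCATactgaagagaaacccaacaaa
ZNF675, chr19:23653910-23653993, minus strand: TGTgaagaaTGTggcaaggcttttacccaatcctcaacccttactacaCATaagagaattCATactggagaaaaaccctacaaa
ZNF467, chr7:149765767-149765850, minus strand: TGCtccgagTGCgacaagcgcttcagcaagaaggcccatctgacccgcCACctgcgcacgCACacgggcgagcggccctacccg
The KRAB genes ZNF92 and ZNF107 shared 73 of 84 bases (86.9%) in this unit, ZNF92 and ZNF675 shared 75, and ZNF92 and ZNF467, which lacks the KRAB pattern, shared 38 (45.2%). Reads were 75 bases long, so likeness of this kind could place a read at a wrong gene. Over whole transcripts, 112 of 166 members had no 75-base stretch that also occurs in a transcript of another gene, 13 had more than 10% of their stretches shared and 4 more than 50%. Those 4 were ZNF320 (99.5%), ZNF395 (96.0%), ZNF747 (89.4%) and ZNF410 (79.8%), whose values are uncertain, and ZNF512 (33.8%), ZNF511 (22.5%), ZNF775 (21.4%) and ZNF358 (18.5%) follow. Every GENCODE 29 transcript given to another gene was counted, so the share does not measure likeness of fingers alone. How such reads were assigned in the deposited values, made on hg19, is unknown. The share was 0 for ZNF467, ZNF205, ZNF688, ZNF689, ZNF32, ZNF436, ZNF124, ZNF367, ZNF771, ZNF92 and ZNF107.

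All 7 GIST identity markers (KIT, ANO1, ETV1, PDGFRA, HAND1, FOXF1 and PRKCQ) reached 1 FPKM in every group except the combination, where 6 did, and their summed FPKM per library was 121 to 211 with imatinib plus JQ1, 267 to 351 with JQ1 for 24 h, 548 to 599 with imatinib for 24 h, 496 to 566 with JQ1 for 6 h, 703 to 791 with imatinib for 6 h and 1419 to 2139 with DMSO. Summed leukocyte markers lay between 0.437 and 3.65 FPKM in all libraries, endothelial markers between 0.277 and 0.602, and smooth muscle markers between 0.388 and 0.786. Of the epithelial markers, CDH1 had group means of at most 0.234 FPKM, while KRT18 carried most of a sum of 16.4 to 29.3 with the combination and 416 to 663 with DMSO. The part of these marker levels in the results was not tested. The median change of all tested genes moved too: against DMSO it was -2.05 log2 with imatinib plus JQ1, -1.49 with JQ1 for 24 h, -1.5 with imatinib for 24 h, -1.0 with JQ1 for 6 h and -0.69 with imatinib for 6 h. In bulk RNA, fewer cells of a type and less RNA per cell cannot be told apart.

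The ZNF members were moderately expressed genes. Their median DMSO mean was 18.9 FPKM, with quartiles of 13.6 and 33.4, against a median of 46.0 FPKM over all 9008 genes that met the same threshold. Just inside it stood ZNF320 (8.74, 9.71 and 11.6 FPKM, mean 10.0) and ZNF853 (9.12, 8.98 and 12, mean 10.0), and just outside ZNF783 (mean 9.99) and ZNF473 (mean 9.88).

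Members of highest DMSO level included genes of cell division and of ribosome assembly. ZNF207, a BUB3-binding protein of the mitotic spindle, was at 192, 238 and 294 FPKM in the DMSO libraries, and ZNF664 at 189, 232 and 288. ZNF639 averaged 178 ± 37.7 FPKM, ZNF622, which acts in maturation of the large ribosomal subunit, 136 ± 29, and ZNF146, a protein made almost wholly of fingers, 118 ± 25.3 (SD, n = 3 DMSO libraries each). ZNF593, whose yeast counterpart exports the large ribosomal subunit, averaged 97.1 ± 21.3, ZNF511 93.6 ± 24.1, and ZNF131, a BTB domain protein, 85.7 ± 16.1. The replicates were not interchangeable in height: DMSO replicate 3 was the highest of its group in 165 of 167 members and replicate 1 the lowest in 164. This order was not counted over all genes. Leaving out the rows named MIR1244, all genes summed to 1.08e+06, 1.36e+06 and 1.63e+06 FPKM in DMSO replicates 1, 2 and 3, so whole libraries differed in height.

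Summed over the 167 members, FPKM averaged 902 ± 267 with imatinib plus JQ1, 1391 ± 175 with JQ1 for 24 h, 1505 ± 85.8 with imatinib for 24 h, 2059 ± 159 with JQ1 for 6 h, 2801 ± 232 with imatinib for 6 h and 5023 ± 987 with DMSO (SD, n = 3 each). The 3 lowest sums, 663 to 1190, belonged to the combination, and the ranges of JQ1 24 h and imatinib 24 h overlapped (1231 to 1578 and 1413 to 1583). As a share of all FPKM, leaving out the rows named MIR1244, the members held 0.319% with the combination, 0.311% with JQ1 for 24 h, 0.395% with imatinib for 24 h, 0.285% with JQ1 for 6 h, 0.348% with imatinib for 6 h and 0.370% with DMSO. The share ran over a narrower range than the summed level. At least 10 FPKM was reached by 18 members with the combination, 40 with JQ1 for 24 h, 45 with imatinib for 24 h, 69 with JQ1 for 6 h and 98 with imatinib for 6 h. All 167 reach it with DMSO by the rule that chose them. No like count over all genes was made in the treated groups, so nothing is read from these counts.

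**Figure D1:**
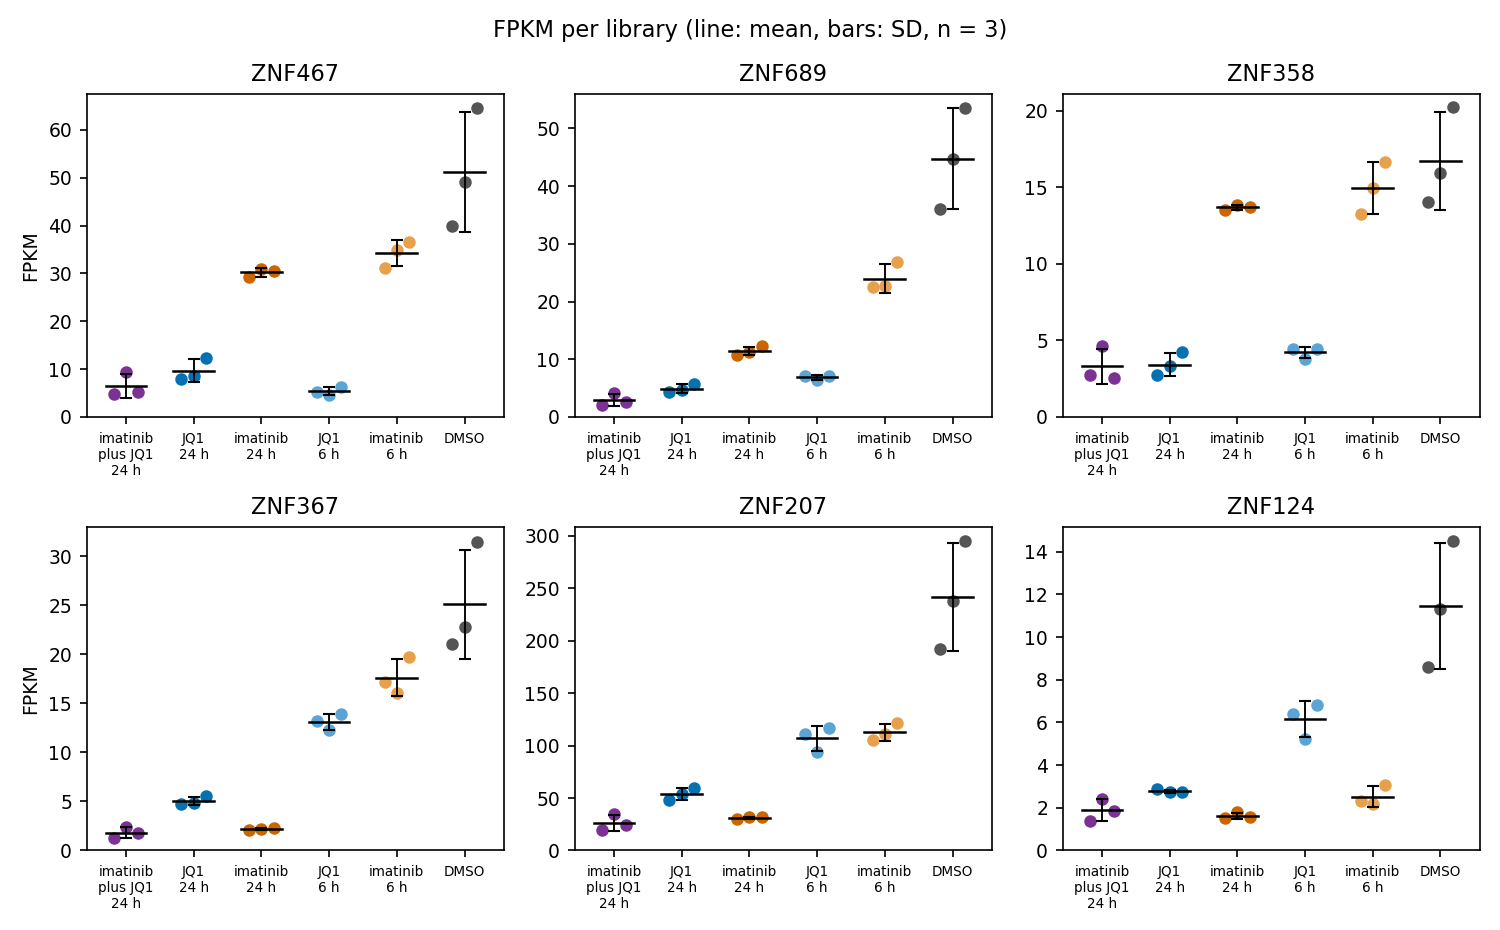
FPKM in each library (points) of ZNF467, ZNF689, ZNF358, ZNF367, ZNF207 and ZNF124 in the 6 groups, with the mean as a line and SD as bars (n = 3). ZNF467 stands at 4.55 to 6.22 FPKM with JQ1 for 6 h and at 31.2 to 36.7 with imatinib for 6 h, and ZNF367 at 2.11 to 2.30 with imatinib for 24 h and 16 to 19.7 with imatinib for 6 h.

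Members differed in how far they stood below DMSO. A log2(FPKM + 1) difference of at least 1 below DMSO was seen in 166 members (99.4%) with imatinib plus JQ1, against 86.3% of all 12771 tested genes, and in 154 (92.2%, all genes 75.6%) with JQ1 for 24 h and 145 (86.8%, all genes 72.4%) with imatinib for 24 h. At 6 h it was 105 (62.9%, all genes 50.0%) with JQ1 and 43 (25.7%, all genes 20.3%) with imatinib. No member was 1 or more log2 above DMSO in any group, against 0.345% of all tested genes with the combination, 0.501% with JQ1 for 24 h, 0.767% with imatinib for 24 h, 0.822% with JQ1 for 6 h and 0.611% with imatinib for 6 h. These shares follow the DMSO threshold that chose the members and nothing is read from them. The median member difference was -2.17 with the combination, -1.63 with JQ1 for 24 h, -1.57 with imatinib for 24 h, -1.19 with JQ1 for 6 h and -0.82 with imatinib for 6 h.

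The combination gave the lowest mean in 152 of 167 members. This order was not counted over all tested genes, whose median was also lowest with the combination (-2.05 log2 against DMSO). Imatinib for 24 h was lowest in 8, ZNF92, ZNF28, ZNF669, ZNF695, ZNF761, ZNF18, ZNF765 and ZNF124, and JQ1 for 6 h in 7, ZNF467, ZNF277, ZNF688, ZNF581, ZNF740, ZNF395 and ZNF691. Farthest below DMSO with the combination were ZNF689 (-3.56), ZNF668 (-3.55) and ZNF775 (-3.33), with JQ1 for 24 h ZNF689 (-2.94), ZNF668 (-2.76) and ZNF521 (-2.60), and with imatinib for 24 h ZNF367 (-3.01), ZNF207 (-2.89) and ZNF259 (-2.78). At 6 h they were ZNF467 (-3.02), ZNF689 (-2.53) and ZNF775 (-2.35) with JQ1, and ZNF124 (-1.80), ZNF259 (-1.49) and ZNF593 (-1.43) with imatinib.

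Nearest to DMSO with the combination were ZNF277 (-0.75), ZNF740 (-1.09) and ZNF627 (-1.18), with JQ1 for 24 h ZNF277 (-0.61), ZNF627 (-0.66) and ZNF740 (-0.72), and with imatinib for 24 h ZNF358 (-0.26), ZNF277 (-0.37) and ZNF436 (-0.38). With JQ1 for 6 h they were ZNF18 (-0.12), ZNF627 (-0.20) and ZNF43 (-0.28). With imatinib for 6 h the highest changes were those of ZNF688 (0.34), ZNF212 (0.02) and ZNF277 (0.02), which lay above DMSO. The member nearest to DMSO in that group was ZNF740 (-0.0037). ZNF277 kept 18.5 ± 4.56 FPKM with the combination, against 31.4 ± 5.37 with DMSO (SD, n = 3 each).

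**Figure D2:**
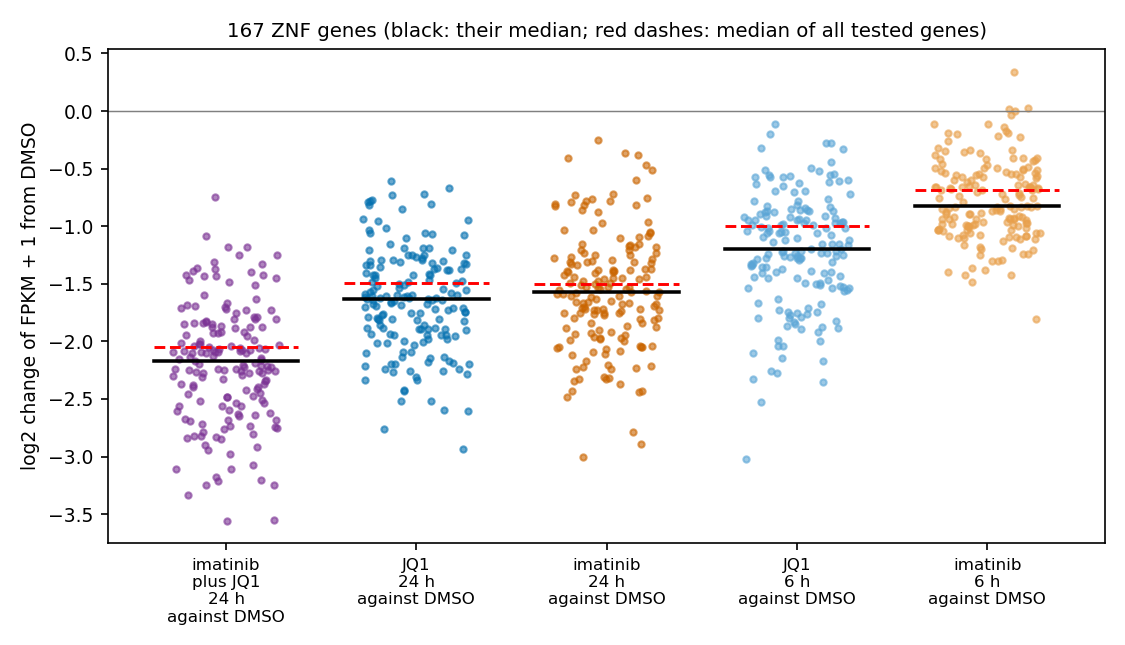
Log2(FPKM + 1) of each treated group minus DMSO for the 167 members (points), with the member median in black and the median of all 12771 tested genes as a red dashed line. The member median lies at -2.17 with imatinib plus JQ1 and at -0.82 with imatinib for 6 h, beside medians of -2.05 and -0.69 over all tested genes.

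With JQ1 for 6 h against imatinib for 6 h, a minority of the zinc finger genes passed the test, nearly all as falls. Of 167 members, 27 (16.2%) fell, against 9.36% of all tested genes and 9.35% of genes of at least 10 FPKM in DMSO, and 1 rose, against 1.95% of all tested genes. A call here and below is an adjusted p below 0.05 (limma, Benjamini-Hochberg over 12771 genes) with a log2(FPKM + 1) change of at least 1, a scale that understates the change of low genes. Genes named first in each comparison were picked among calls whose groups did not overlap, so their lack of overlap follows from that choice. The member median was -0.40, that of all tested genes -0.30, and 11 of 193 tested ZNF genes below the threshold (5.70%) fell.

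ZNF467 had the largest fall. In mouse it steers marrow stromal cells toward adipocytes and away from bone. It was at 5.28, 4.55 and 6.22 FPKM with JQ1 for 6 h, against 31.2, 34.8 and 36.7 with imatinib for 6 h, and the groups were far apart. The change was -2.48 ± 0.21 log2 (SE, 6.40-fold lower by mean FPKM, adjusted p 3.7e-09, limma).

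ZNF205, ZNF688 and ZNF689, all KRAB genes of chromosome 16, followed. ZNF205 was at 5.95, 4.54 and 5.36 FPKM with JQ1 for 6 h, against 19.9, 19.7 and 23.3 with imatinib for 6 h (log2 change -1.81, 3.97-fold lower, adjusted p 8.9e-08, limma). ZNF688 was at 9.38, 8.91 and 8.47 with JQ1, against 31.3, 33.4 and 35.3 with imatinib (-1.79, 3.74-fold lower, adjusted p 1.1e-07). ZNF689 was at 7.03, 6.32 and 7.18 with JQ1, against 22.5, 22.6 and 26.8 with imatinib (-1.67, 3.50-fold lower, adjusted p 1e-07). In all 3 genes each JQ1 library lay below each imatinib library, which the choice of named genes required.

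The other 23 falls ran from ZNF444 (-1.64) and ZNF395 (-1.64) through ZNF358 (-1.61), ZNF32 (-1.53), ZNF691 (-1.40) and ZNF384 (-1.39) to ZNF282 (-1.04). ZNF384, a factor known from leukemia gene fusions, averaged 10.6 ± 0.837 FPKM with JQ1 for 6 h and 29.3 ± 2.94 with imatinib for 6 h (SD, n = 3 each). ZNF124, a KRAB gene of chromosome 1, went the other way, with 6.38, 5.20 and 6.83 FPKM with JQ1 for 6 h, against 2.32, 2.18 and 3.08 with imatinib for 6 h. The groups did not overlap and the change of 1.02 ± 0.16 log2 (SE, 2.43-fold higher, adjusted p 2.6e-05, limma) sits at the threshold, since it was 0.95 to 0.99 without any one of imatinib 6 h replicates 1 and 2 and JQ1 6 h replicates 1 and 3. When each library was rescaled to remove the median shift between libraries, all 28 calls kept their direction, 12 stayed called, and ZNF28 was added as a rise. On that scale the member median was -0.07, 74 of 167 members were positive, and 11 (6.59%) stood at -1 or lower, against 3.51% of all tested genes.

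The 300 bases around the start sites of the gene that fell most, a KRAB gene that fell, the gene with the largest fall over time with imatinib and the gene that rose are shown, as the leading members of the results on JQ1 against imatinib and on time. Sequences are from RefSeq (GRCh38.p14), 250 bases before to 50 after the start, and capitals mark matches to the motifs searched on both strands: the E2F type motifs TTTCCCGC, TTTGGCGC, TTTCGCGC and TTTGCCGC, the E-box CACGTG, and the ETS core CCGGAA.
ZNF467, chr7:149773539-149773838, minus strand: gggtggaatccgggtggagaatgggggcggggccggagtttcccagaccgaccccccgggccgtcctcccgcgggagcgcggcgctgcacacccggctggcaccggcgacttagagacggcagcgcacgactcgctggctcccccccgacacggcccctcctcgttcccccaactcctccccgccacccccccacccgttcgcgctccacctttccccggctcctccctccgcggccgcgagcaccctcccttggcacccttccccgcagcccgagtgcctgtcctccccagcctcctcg
ZNF689, chr16:30610384-30610683, minus strand: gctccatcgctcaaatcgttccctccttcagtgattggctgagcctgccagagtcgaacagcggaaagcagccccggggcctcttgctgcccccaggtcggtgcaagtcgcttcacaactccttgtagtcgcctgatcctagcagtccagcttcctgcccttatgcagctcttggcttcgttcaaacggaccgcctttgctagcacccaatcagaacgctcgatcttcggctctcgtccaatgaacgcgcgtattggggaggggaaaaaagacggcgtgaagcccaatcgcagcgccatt
ZNF367, chr9:96418321-96418620, minus strand: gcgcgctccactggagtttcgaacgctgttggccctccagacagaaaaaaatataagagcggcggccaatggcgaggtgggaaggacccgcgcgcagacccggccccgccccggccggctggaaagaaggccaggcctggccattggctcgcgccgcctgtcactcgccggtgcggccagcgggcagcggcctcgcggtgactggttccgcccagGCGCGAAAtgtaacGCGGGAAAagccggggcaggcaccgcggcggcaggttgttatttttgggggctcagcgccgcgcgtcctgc
ZNF124, chr1:247171971-247172270, minus strand: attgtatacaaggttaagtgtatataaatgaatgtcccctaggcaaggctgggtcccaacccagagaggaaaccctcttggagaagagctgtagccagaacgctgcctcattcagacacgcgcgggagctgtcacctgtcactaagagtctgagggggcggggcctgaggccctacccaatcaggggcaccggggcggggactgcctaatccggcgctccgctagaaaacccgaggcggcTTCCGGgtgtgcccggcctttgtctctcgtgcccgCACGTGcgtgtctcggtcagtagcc
The windows of ZNF467 and ZNF689 held none of these motifs. ZNF367 held 2 E2F type motifs on the reverse strand, 35 and 21 bases before the start, and ZNF124 an ETS core on the reverse strand 10 bases before and an E-box 25 bases after the start. Of the 145 members with a promoter in the table, 12 (8.28%) held an E2F type motif, against 5.97% of the 6737 promoters of genes of at least 10 FPKM and 3.33% of all 27305. The ETS core was in 73 (50.3%), against 33.1% and 17.6%, its longer form CCGGAAGT, which contains the core, in 20 (13.8%), against 10.5% and 4.44%, and the E-box in 9 (6.21%), against 10.9% and 7.43%. Member promoters were also richer in G and C, with a median of 63.7% against 58.3% over all promoters and 25 against 14 CpG pairs, and the part of base composition in these shares was not tested.

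By 24 h fewer members separated the drugs. With JQ1 for 24 h against imatinib for 24 h, 6 members fell (3.59%), against 4.88% of all tested genes, and 0 rose in the limma test, against 3.59% of all tested genes, with 19 higher at an unadjusted p below 0.05. The share of all tested genes at that unadjusted threshold is not given here or below, so nothing is read from such counts. The member median was -0.05 and that of all tested genes 0.04. The share of falls was thus below that of all tested genes.

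ZNF358 stood out in this comparison, with 2.74, 3.30 and 4.23 FPKM with JQ1 for 24 h, against 13.5, 13.8 and 13.7 with imatinib for 24 h. The change was -1.74 ± 0.18 log2 (SE, 4.0-fold lower, adjusted p 6.3e-08, limma), with no overlap. ZNF467 was at 8.0, 8.63 and 12.4 FPKM with JQ1, against 29.2, 30.9 and 30.4 with imatinib (-1.57, adjusted p 3.2e-06), and ZNF32 at 16.3, 15.5 and 18.6 with JQ1, against 35.3, 41.2 and 39.5 with imatinib (-1.16, adjusted p 1.4e-05). ZNF436 was at 6.19, 6.44 and 6.87 FPKM with JQ1, against 14.3, 16.3 and 15.4 with imatinib (-1.12, adjusted p 1.7e-05). ZNF689 (-1.07) and ZNF853 (-1.03) completed the 6, and all 6 stayed called after rescaling the libraries.

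Of the 27 falls at 6 h and the 6 at 24 h, 5 were shared (18.5% and 83.3%): ZNF32, ZNF358, ZNF436, ZNF467 and ZNF689. Of all tested genes, 9.36% fell at 6 h and 4.88% at 24 h. Their overlap was not counted, so nothing is read from the members' overlap. The changes at the 2 times, from different libraries, ran together over the 167 members (Pearson r 0.77, Spearman rho 0.77), and 123 had the same sign. These points share the libraries of each time, so the values describe the members only.

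The difference between the drugs was also compared between times. JQ1 minus imatinib at 24 h less the same at 6 h was called positive in 10 members (limma, a contrast added after the data were seen), against 7.72% of all tested genes, and negative in 0, against 1.50%. The members' share of positive calls was thus below that of all tested genes. The member median was 0.32 and that of all tested genes 0.34. ZNF226 changed most (1.47 ± 0.24 log2, SE, adjusted p 0.00013), at 8.12, 9.40 and 9.59 FPKM with JQ1 for 24 h and 6.54, 7.12 and 5.74 with imatinib for 24 h, and at 6.05, 4.63 and 5.95 with JQ1 for 6 h and 12.7, 10.8 and 14 with imatinib for 6 h. JQ1 libraries lay above imatinib libraries at 24 h and below them at 6 h. After rescaling by ratios 1 of the 10 was called, against 2.54% of all tested genes, and after rescaling by totals 2 were, against 2.76%.

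**Figure D3:**
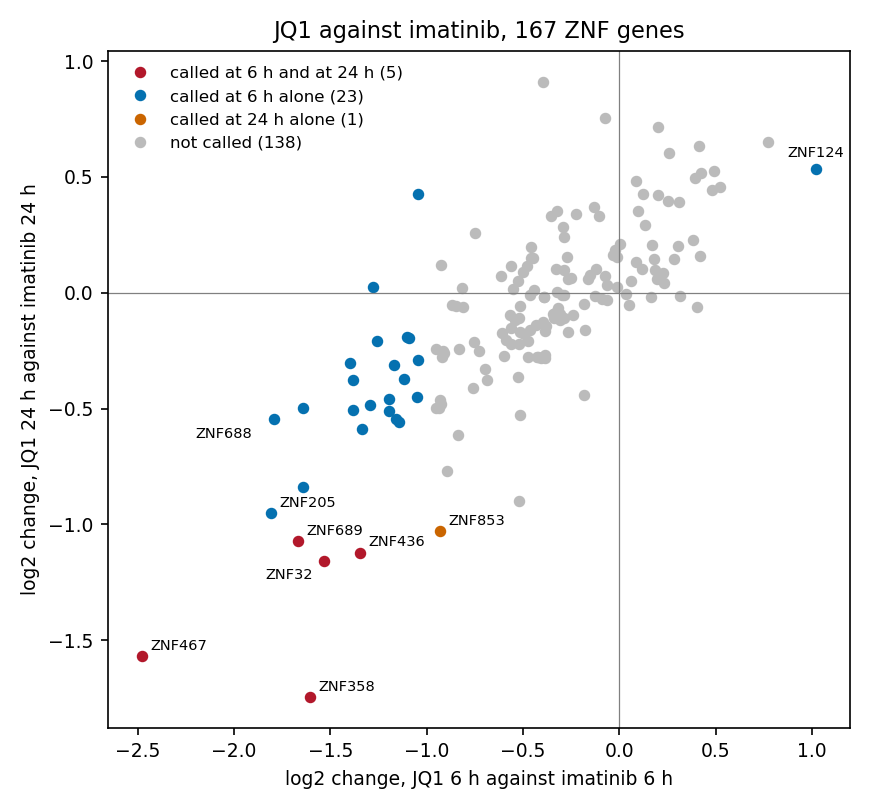
Log2 change of JQ1 against imatinib at 6 h (horizontal) and at 24 h (vertical) for the 167 members (points), colored by the comparison in which each was called. The 5 members called at both times lie at the lower left, 23 were called at 6 h only, 1 at 24 h only and 138 at neither.

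Between imatinib plus JQ1 and imatinib alone at 24 h, 25 members fell (15%), against 14.5% of all tested genes, so the share was near the background. None rose in the limma test, against 0.423% of all tested genes, and 0 were higher at an unadjusted p below 0.05. The member median was -0.58 and that of all tested genes -0.50.

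ZNF467 again fell most, at 4.79, 9.42 and 5.30 FPKM with imatinib plus JQ1, against 29.2, 30.9 and 30.4 with imatinib for 24 h (-2.11 ± 0.21 log2, SE, adjusted p 3e-08, limma). ZNF358 was at 2.76, 4.63 and 2.55 with the combination, against 13.5, 13.8 and 13.7 with imatinib (-1.80, adjusted p 2.4e-08). ZNF205 was at 2.36, 3.93 and 2.13 with the combination, against 10.8, 11.2 and 11.2 with imatinib (-1.69, adjusted p 1.6e-07). ZNF689 was at 2.13, 4.07 and 2.57 with the combination, against 10.7, 11.3 and 12.2 with imatinib (-1.69, adjusted p 6e-08). No combination library reached an imatinib library in any of these genes, which the choice of named genes required. This comparison shares its 3 imatinib libraries with that of JQ1 24 h against imatinib 24 h. Combination replicate 2 was the highest of its group in 166 members: the count was 14 without combination replicate 1 and 41 without replicate 2. Its FPKM summed over all genes without MIR1244 was also the highest, 367961, against 212407 in replicate 1 and 265256 in replicate 3. After rescaling the libraries by ratios 5 of the 25 stayed called and all 25 kept their direction, while the member median was -0.02 and 78 of 167 members were positive.

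Between imatinib plus JQ1 and JQ1 alone at 24 h, 3 members fell (1.80%), against 7.35% of all tested genes, and 0 rose in the limma test, against 0.0470% of all tested genes, with 0 higher at an unadjusted p below 0.05. All 167 had a negative change, with a median of -0.54, the same as over all tested genes. ZNF775 was at 2.60, 4.47 and 2.42 FPKM with the combination, against 6.94, 7.47 and 9.59 with JQ1 for 24 h (-1.13 ± 0.18 log2, SE, adjusted p 6.3e-05, limma). ZNF367 was at 1.31, 2.36 and 1.79 with the combination, against 4.75, 4.82 and 5.52 with JQ1 (-1.11, adjusted p 2.5e-05), and ZNF207 at 19.1, 34.9 and 24.6 with the combination, against 47.9, 53.4 and 59.3 with JQ1 (-1.04, adjusted p 0.00026). The groups did not overlap in these 3, which the choice of named genes required. The count was 1 without combination replicate 1, 13 without combination replicate 2 and 6 without the unnumbered JQ1 24 h library, and 0 of the 3 stayed called after either rescaling. After rescaling by ratios the member median was 0.05 and 104 of 167 members were positive.

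With imatinib for 24 h against 6 h, 38 members fell (22.8%), against 33.4% of all tested genes and 44.9% of genes of at least 10 FPKM. None rose in the limma test, against 0.501% of all tested genes, and 0 were higher at an unadjusted p below 0.05. The member median was -0.75 and that of all tested genes -0.77.

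ZNF367, cloned as an activator of erythroid gene promoters, fell most, at 2.11, 2.19 and 2.30 FPKM with imatinib for 24 h, against 17.2, 16 and 19.7 with imatinib for 6 h. This was -2.54 ± 0.16 log2 (SE, 8.01-fold lower, adjusted p 4.1e-11, limma). ZNF207 was at 30.1, 32.2 and 31.4 at 24 h, against 105, 111 and 122 at 6 h (-1.82, adjusted p 4.8e-08), and ZNF771 at 3.33, 4.15 and 3.70 at 24 h, against 11.2, 15 and 14.5 at 6 h (-1.62, adjusted p 1.1e-07). ZNF695 was at 5.07, 4.51 and 4.68 at 24 h, against 13.6, 14.9 and 16.7 at 6 h (-1.48, adjusted p 6.4e-07). None of the 4 genes overlapped between times, which the choice of named genes required. ZNF367 alone of the 38 remained called after either rescaling. After rescaling by ratios the member median was 0.09 and 106 of 167 members were positive.

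With JQ1 for 24 h against 6 h, 17 members fell (10.2%), against 14.2% of all tested genes. None rose in the limma test, against 0.509% of all tested genes. At an unadjusted p below 0.05, 8 were higher, a count with no share of all tested genes beside it, from which nothing is read. The member median was -0.44 beside -0.45 for all tested genes. Leading falls were KRAB genes. ZNF721 was at 4.03, 4.35 and 4.81 FPKM with JQ1 for 24 h, against 12.8, 12.2 and 13.1 with JQ1 for 6 h (-1.35 ± 0.16 log2, SE, adjusted p 7.3e-07, limma), ZNF101 at 3.35, 3.74 and 4.40 at 24 h, against 12.4, 10.1 and 10.9 at 6 h (-1.33, adjusted p 3.9e-06), and ZNF107 at 4.86, 5.07 and 5.32 at 24 h, against 14.3, 12.3 and 14.3 at 6 h (-1.27, adjusted p 1.1e-06). ZNF92 was at 20.2, 21.3 and 23.0 at 24 h, against 56.2, 45.7 and 55.4 at 6 h (-1.24, adjusted p 9.1e-06). The 24 h libraries lay below every 6 h library in all 4, which the choice of named genes required.

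None of the 17 remained called after rescaling by ratios, where the member median was 0.06, 92 of 167 members were positive and 5 others, ZNF212, ZNF226, ZNF444, ZNF467 and ZNF740, became rises. On that scale 2.95% of all tested genes stood at 1 or higher. The count was 10 without the unnumbered JQ1 24 h library. Of the falls over time, 11 were common to imatinib and JQ1 (28.9% of 38 and 64.7% of 17): ZNF101, ZNF107, ZNF195, ZNF259, ZNF367, ZNF675, ZNF680, ZNF714, ZNF771, ZNF789 and ZNF92. Of all tested genes, 33.4% fell over time with imatinib and 14.2% with JQ1. Their overlap was not counted, so nothing is read from the members' overlap.

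**Figure D4:**
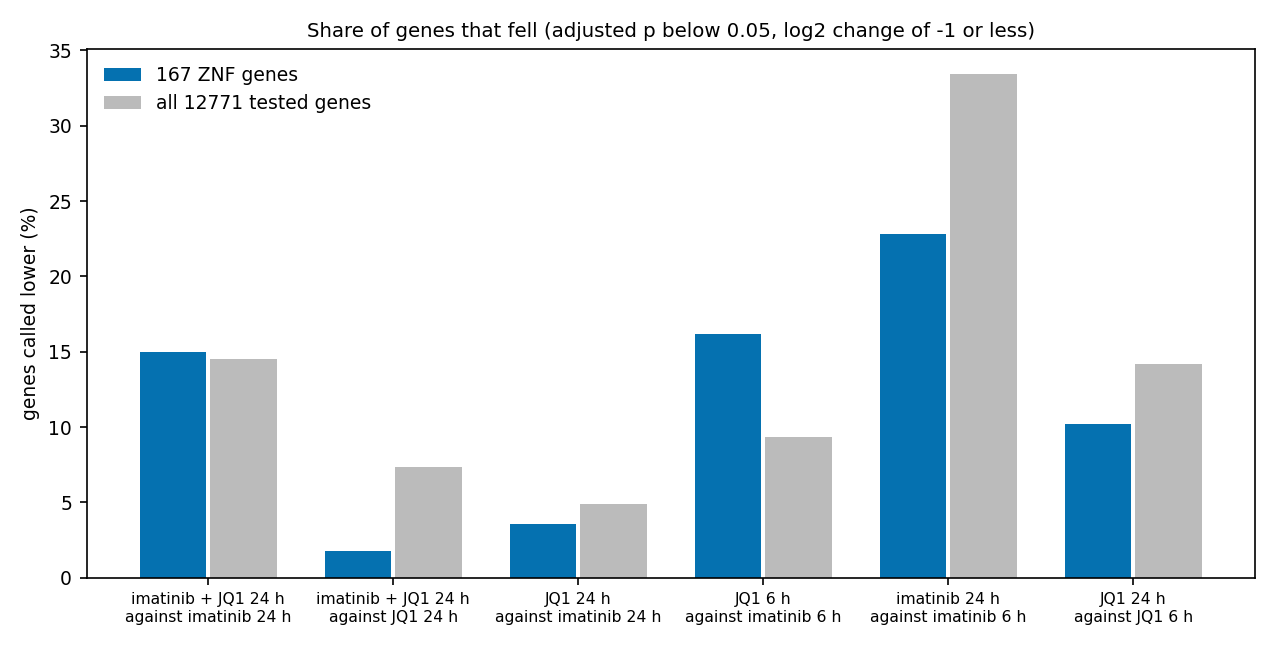
Percent of features that fell in each of the 6 tested comparisons, with the 167 members left of all 12771 tested genes. The members' share is 16.2% beside 9.36% in JQ1 6 h against imatinib 6 h and 22.8% beside 33.4% in imatinib 24 h against 6 h.

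Members with and without the KRAB pattern were counted apart. In JQ1 6 h against imatinib 6 h, 10 of 81 members with the KRAB pattern fell (12.3%, median -0.27), against 16 of 85 without it (18.8%, median -0.48) and 9.36% of all tested genes (median -0.30). Within the KRAB members, 1 of 33 on chromosome 19 fell (median -0.07) and 9 of 48 on other chromosomes (median -0.40), while their DMSO medians were 14.9 and 20.5 FPKM. In imatinib plus JQ1 against imatinib for 24 h, 7 KRAB members (8.64%) and 18 others (21.2%) fell, beside 14.5% of all tested genes. In JQ1 24 h against 6 h, 11 KRAB members (13.6%) and 6 others (7.06%) fell, beside 14.2% of all tested genes. In JQ1 6 h against imatinib 6 h, 4 of 18 members on chromosome 16 (22.2%) and 3 of 21 on chromosome 7 (14.3%) fell, beside 9.36% of all tested genes. In the combination against imatinib these were 7 of 18 (38.9%) and 4 of 21 (19%), beside 14.5%. These splits are counts with no test, and nothing is called particular to a class.

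**Figure D5:**
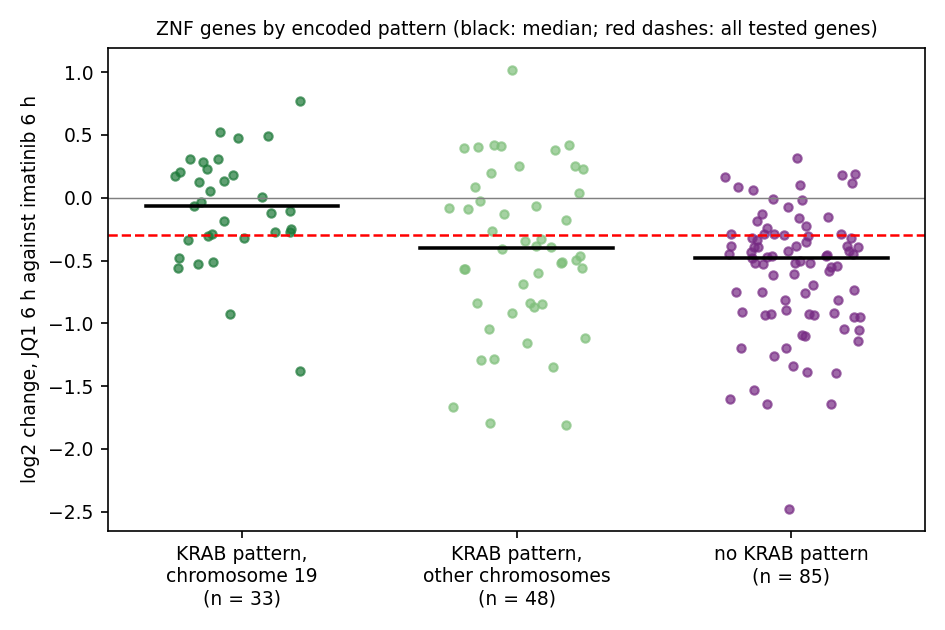
Log2 change of JQ1 6 h against imatinib 6 h for members with the KRAB pattern on chromosome 19 (n = 33), with it on other chromosomes (n = 48) and without it (n = 85), each point 1 member, the black line the median and the red dashed line the median of all tested genes (-0.30). Medians are -0.07, -0.40 and -0.48.

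Members were also grouped by known role, after their values were seen and with no test of a group. Of the 4 that serve the ribosome and translation, ZNF593 was called in none of the 6 comparisons, though at -0.999 over time with imatinib it lay just short of the threshold. ZNF259, which binds elongation factor eEF1A, fell in 24 h against 6 h of imatinib (-1.30) and of JQ1 (-1.04), ZNF598, the ubiquitin ligase of collided ribosomes, fell over time with imatinib (-1.21), and ZNF622 with JQ1 (-1.02). None of these calls over time remained after either rescaling. Of the activating promoter factors, ZNF384 fell in JQ1 6 h against imatinib 6 h (-1.39), the combination against imatinib (-1.08) and imatinib over time (-1.07), and ZNF410, which drives CHD4, over time with imatinib (-1.31). After either rescaling, only the first of these ZNF384 calls remained (-1.02 by ratios, -1.22 by totals), and the ZNF410 call did not. ZNF410 is also among the members with most stretches shared (79.8%). ZNF143, which binds many promoters, its relative ZNF76 and ZNF711, a regulator known from X-linked intellectual disability, were called in none. ZNF592 and ZNF687, partners of ZMYND8, and the RNA binding proteins ZNF326, ZNF346, ZNF638 and ZNF830 were called in none of the 6. Of the tumor-associated genes ZNF217, ZNF703, ZNF503 and ZNF521, ZNF521 fell in the combination against imatinib (-1.14), averaging 1.08 ± 0.286 FPKM with the combination and 3.58 ± 0.508 with imatinib for 24 h (SD, n = 3 each). This call of ZNF521 did not remain after either rescaling. Some members not called also lay near the threshold over time with imatinib: ZNF217 (-0.98), ZNF143 (-0.97) and ZNF830 (-0.96). Called and not called members can thus differ little in change.

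The partners of KRAB proteins were followed with a list of 25 corepressor and heterochromatin genes, all tested, with values on the deposited scale. In JQ1 6 h against imatinib 6 h 3 fell (12%, all tested genes 9.36%), SETDB1 (-1.62), the histone methyltransferase that TRIM28 brings in, SMARCAD1 (-1.19) and SUV39H1 (-1.15). SETDB1 averaged 3.66 ± 0.116 FPKM with JQ1 for 6 h and 13.3 ± 1.51 with imatinib for 6 h (SD, n = 3 each). With JQ1 24 h against imatinib 24 h CHD3 fell (-1.33) and UHRF1 rose (1.68), 1 gene each (4%), beside 4.88% of all tested genes that fell and 3.59% that rose. In the combination against imatinib CHD3 (-1.74) and HDAC1 (-1.02) fell (8%, all tested genes 14.5%), and in the combination against JQ1 UHRF1 (-2.05), DNMT1 (-1.22), CBX3 (-1.11) and CBX5 (-1.07) fell (16%, all tested genes 7.35%). Over time 12 fell with imatinib (48%, all tested genes 33.4%), led by UHRF1 (-3.37) and SUV39H1 (-2.03), and 3 with JQ1 (12%, all tested genes 14.2%), UHRF1 (-1.54), TRIM24 (-1.10) and HDAC1 (-1.0). The list's median change was -0.35 in JQ1 6 h against imatinib 6 h (all tested genes -0.30), 0.12 at 24 h (0.04), -0.55 in the combination against imatinib (-0.50) and -0.76 against JQ1 (-0.54). Over time it was -0.99 with imatinib (all tested genes -0.77) and -0.59 with JQ1 (-0.45).

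Other C2H2 families were counted in the same way, with no test of a family. Of 37 tested ZBTB genes, which pair fingers with a BTB domain, 11 fell (29.7%) in JQ1 6 h against imatinib 6 h (median -0.51), against 9.36% of all tested genes (median -0.30), led by ZBTB38 (-2.70), ZBTB7C (-2.41), ZBTB4 (-2.39) and ZBTB7B (-2.31). In that comparison 3 of 20 tested ZKSCAN and ZSCAN genes (15%), 2 of 14 ZFP genes (14.3%) and 5 of 30 ZNF genes with a letter after the number (16.7%) fell. ZSCAN18 rose over time with imatinib (1.03) and with JQ1 (1.12).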

How the data were processed

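The labels' protocols describe RNA set by cell number with ERCC spike-ins, stranded poly(A) libraries and single-end reads of 75 bases. STAR, Cufflinks and hg19 are named in the submitters' processing notes, with no versions. The authors deposited 1 table of FPKM values for 18 libraries with 23713 rows, 92 of them spike-ins, and how they were normalized is not stated in the sources used here. Read depth is unknown and replicate spread alone gives the precision. Over the 24 spike-ins with a mean of at least 5 FPKM, library medians lay between -0.02 and 0.04 log2 of the mean. Summed spike-ins ran from 6505 to 6948 FPKM per library, and summed genes without MIR1244 from 212407 to 1.63e+06. The values are thus not scaled to mapped fragments alone. One JQ1 24 h column bears a number found in no title, so it counts as that group's unnumbered library.

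A gene entered the test where 3 or more libraries reached 1 FPKM, which 12771 did, every member included. The model was limma (version 3.58.1 under R 4.3.3) on log2(FPKM + 1), with 1 mean per group, a variance trend, and 12 degrees of freedom left. P-values were two-sided, adjusted by Benjamini-Hochberg within each of 6 comparisons, and called at an adjusted p below 0.05 and a log2 change of at least 1. The scripts were tested on simulated data. Named genes were the 8 members of highest DMSO level, up to 4 rises and 4 falls per comparison without overlap between groups, the 3 highest and 3 lowest changes from DMSO per group, the 2 genes on either side of the threshold, up to 4 called genes per list, and others named after their values were seen. The members and lists were chosen with earlier results of these data known. Alternatives were a pseudocount of 0.1, unfiltered genes, genes averaging 5 FPKM or more, 2 rescalings (by median gene ratio, and by total FPKM without MIR1244), a replicate block and leaving out each library.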

Additional observations from a re-analysis of the deposited data

Results flagged for a closer look

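The difference between JQ1 and imatinib was called as changed between times in 10 of the 167 members on the deposited scale, tested as JQ1 minus imatinib at 24 h less the same at 6 h, a contrast added after the data were seen. All 10 were positive in this contrast, against 7.72% of all tested genes, and 0 were negative in the limma test, against 1.50%. The members' share of positive calls was thus below that of all tested genes, and nothing here is particular to the members. The member median was 0.32 and that of all tested genes 0.34. ZNF226 differed by 1.47 log2 (adjusted p 0.00013, limma), from a JQ1 minus imatinib value of 0.43 at 24 h and -1.05 at 6 h. ZNF367 differed by 1.31 (adjusted p 0.00025), with 0.91 at 24 h and -0.40 at 6 h, and ZNF212 by 1.31 (adjusted p 0.0004), with 0.03 at 24 h and -1.28 at 6 h. ZNF688 differed by 1.24, ZNF444 by 1.15, ZNF691 by 1.09, ZNF740 by 1.05, ZNF775 by 1.05, ZNF384 by 1.01 and ZNF410 by 1.01. After rescaling by ratios ZNF226 remained called, at 1.11, and ZNF367 stood at 0.99. After rescaling by totals ZNF226 (1.12) and ZNF367 (1.04) remained called.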

How the results depend on the processing

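Counts of called members moved by more than 1.5 times under the rescalings and the smaller pseudocount, in the comparisons given next. After ratio rescaling the count was 13 in JQ1 6 h against imatinib 6 h, 5 in the combination against imatinib, 0 in the combination against JQ1, 1 in imatinib 24 h against 6 h and 5, all rises, in JQ1 24 h against 6 h. After total rescaling the count was 10 in JQ1 24 h against imatinib 24 h, 8, 0 and 1 in the next 3 comparisons, and 9, all rises, in JQ1 24 h against 6 h. Changes of -1 or lower on that scale were held by 5.99% of members and 8.66% of all tested genes in the first of these. In the next 3 the shares were 4.79% and 8.52%, 0.00% and 1.27%, and 0.599% and 3.91%. In JQ1 24 h against 6 h, 4.08% of all tested genes stood at 1 or higher. With a pseudocount of 0.1 the count was 10 in JQ1 24 h against imatinib 24 h, 40 in the combination against imatinib and 10 in the combination against JQ1. For the pseudocount, for leaving out 1 library and for the replicate block, no share over all tested genes is given here. Those counts therefore say nothing particular to the members. Leaving out 1 library gave 24 to 28, 4 to 8, 14 to 41, 1 to 13, 28 to 49 and 10 to 24 calls in the 6 comparisons in the order of the report. A move of that size arose only in the combination against imatinib, the combination against JQ1 and JQ1 24 h against 6 h. With the replicate block, fitted without the unnumbered JQ1 24 h library, the counts were 28, 6, 25, 4, 38 and 16, and none moved that far. Gene by gene, same-numbered libraries did not deviate together (median correlation -0.034, 4 of 40 pairs over 0.1). This correlation leaves out a shift in height common to a whole library, so it cannot say whether the numbers pair libraries. Replicate 3 was the highest of its group in 165 members with DMSO, 161 with imatinib for 6 h and 161 with JQ1 for 24 h. It was so in 102 with JQ1 for 6 h, 47 with imatinib for 24 h and 0 with the combination. These orders were not counted over all genes. Of 575 alternative values for 24 named gene results, 548 kept direction and call, 27 kept direction without the call (20 under a rescaling, 7 without a library) and 0 reversed. Much of this was fixed in advance. Leaving out a library outside the groups compared, or changing the gene filter, does not alter a gene's log2 change. The 24 results were also picked as the largest calls without overlap, so these counts do not measure robustness. The cause of the lost calls was not tested. Read depth is unknown and limits what can be said of low values.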
